A study of Mus musculus with 12 samples.

Results

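Interferon beta, the 2 chains of its receptor and 6 transcription factors that act before or after them are described here in the dendritic cell line Sp37A3. The 9 genes were taken by name, with no threshold on their values but with earlier results of these data known: Ifnb1, Ifnar1, Ifnar2, Irf1, Irf3, Irf5, Irf7, Irf9 and Stat2. They are 9 of the 55401 genes in the count table, and all 9 were among the 14079 genes tested. RNA was sequenced from 12 cultures of Sp37A3, a mouse spleen-derived line grown with GM-CSF and M-CSF. CtrV cells had received an empty vector and express Siglec-E, an inhibitory receptor for sialylated glycans. EKO cells are a pool of single-cell clones in which the Siglec-E gene was targeted by CRISPR, so that features of the chosen clones and the loss of Siglec-E cannot be told apart. Each line was sampled after lipopolysaccharide (LPS) for 24 h, either unpulsed or after pulsing with the protein antigen ovalbumin (OVA), with 3 libraries in each of the 4 groups. All groups, the controls included, were therefore LPS-stimulated, and no library shows the genes at rest. The labels do not say whether the 3 cultures of a group were grown independently, so the p-values measure the spread between these samples, which may be technical.

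In cells that meet LPS, TLR4 signals through the adaptor TRIF to the kinases TBK1 and IKK-epsilon, which phosphorylate the factor IRF3. IRF3, with NF-kB, switches on Ifnb1, and the secreted interferon beta binds the receptor pair IFNAR1 and IFNAR2 on the same or neighbouring cells. The receptor's kinases JAK1 and TYK2 then activate STAT2, which acts with IRF9 in the complex ISGF3, and ISGF3 binds interferon-stimulated response elements, among others in Irf7. IRF7 is itself activated by the same kinases and drives further type I interferon genes, which makes the circuit a loop.

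The promoters of Ifnb1, Irf1 and Stat2 are printed because each holds a different combination of the searched elements. The lines give the 250 bases before the RefSeq start of each gene on GRCm38.p6, read 5′ to 3′ along the gene's strand, with every matched element in capitals. Ifnb1 is shown from chr4:88522795-88523044 on the minus strand, Irf1 from chr11:53769764-53770013 on the plus strand and Stat2 from chr10:128270248-128270497 on the plus strand.
Ifnb1: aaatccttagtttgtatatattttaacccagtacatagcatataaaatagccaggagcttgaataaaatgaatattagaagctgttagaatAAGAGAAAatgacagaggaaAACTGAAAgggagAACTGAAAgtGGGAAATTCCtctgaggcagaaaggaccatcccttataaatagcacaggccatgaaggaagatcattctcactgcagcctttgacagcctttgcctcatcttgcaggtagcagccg
Irf1: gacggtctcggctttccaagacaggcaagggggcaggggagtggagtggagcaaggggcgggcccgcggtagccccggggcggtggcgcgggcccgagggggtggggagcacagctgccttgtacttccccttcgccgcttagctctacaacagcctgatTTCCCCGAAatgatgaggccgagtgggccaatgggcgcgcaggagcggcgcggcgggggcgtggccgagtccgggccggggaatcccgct
Stat2: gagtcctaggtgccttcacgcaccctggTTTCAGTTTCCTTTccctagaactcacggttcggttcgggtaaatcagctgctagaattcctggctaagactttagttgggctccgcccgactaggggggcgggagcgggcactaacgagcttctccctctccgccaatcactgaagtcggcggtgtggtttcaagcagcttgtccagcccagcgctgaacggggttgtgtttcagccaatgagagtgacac

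The searched letters were AANNGAAA, here called an IRF element, the interferon-stimulated response element (ISRE) as GAAA, any 2 bases and GAAA, which always contains an IRF element,, the STAT-binding GAS element as TTCNNNGAA, and an NF-kB site as GGGA, any 2 bases and TTCC, on both strands from 250 bases before to 50 after the start. In the Ifnb1 window 3 IRF elements lay at -159 to -152, -139 to -132 and -126 to -119, followed by an NF-kB match at -116 to -107. In Stat2 an ISRE match on the opposite strand lay at -222 to -213, overlapping 2 IRF elements. A single GAS match lay at -90 to -82 in Irf1, at -5 to 4 in Ifnar1 and at -214 to -206 in Ifnar2. None of the 4 letter patterns was in the windows of Irf3, Irf5, Irf7 or Irf9. An empty window does not show that a gene lacks such elements, since sites outside it or with other letters were not searched. All 9 genes matched a RefSeq entry, with 11 windows in all, since Irf1 and Irf9 had 2 each and the match of Irf1 was in 1 of them. Over all 32851 windows in the table, 23.9% held an IRF element, 3.44% an ISRE, 8.3% a GAS and 1.47% the NF-kB letters. These are matches of letters, and binding was not measured.

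**Figure D1:**
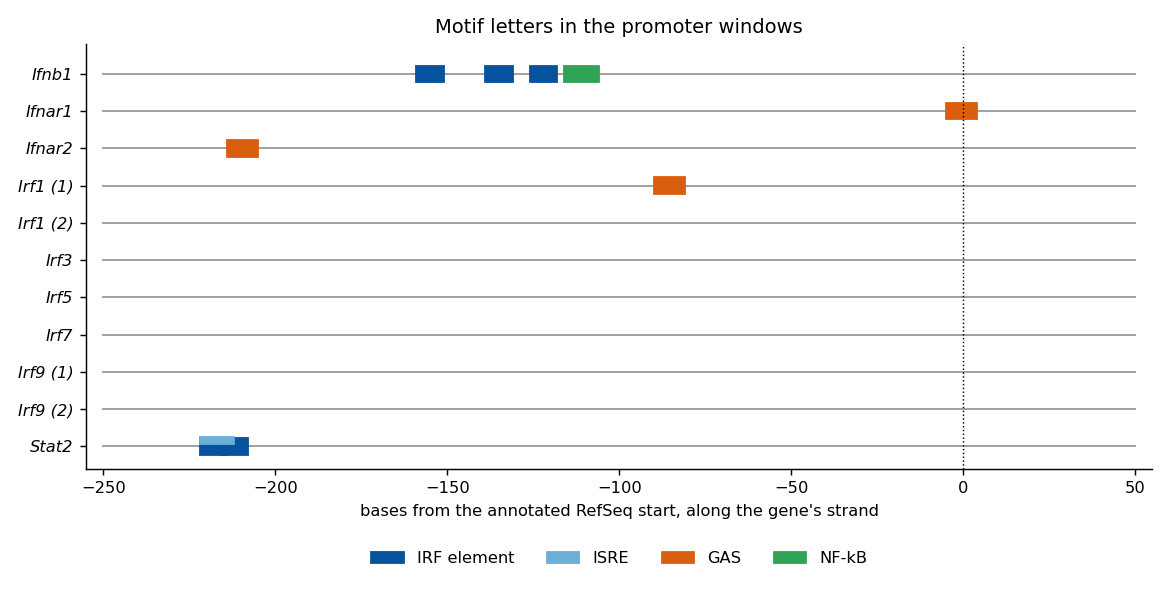
Matches of the 4 letter patterns in the 11 promoter windows of the 9 genes, in bases from the annotated start (dotted line) along the gene's strand; an ISRE is drawn on top of the IRF element it contains. The Ifnb1 window shows 3 IRF elements followed by the NF-kB match, and the windows of Irf3, Irf5, Irf7 and Irf9 are empty.

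Total counts per library ranged from 27116201 to 39698572, so that 3 counts correspond to a level of 0.0785 to 0.110 CPM, the count of a gene scaled to a library of 1000000 counts. The first principal component, with 83.8% of the variance, separated the lines, and replicate 1 of both EKO groups stood apart from EKO replicates 2 and 3 on the second component, which held 7.11%. Siglece, the targeted gene, was not lower in the libraries labelled EKO: it lay at 150.2 to 163 CPM in the 6 CtrV libraries, at 166, 222 and 235 CPM in unpulsed and at 174, 208 and 202 CPM in OVA-pulsed EKO libraries (log2 fold change 0.31, SE 0.08, edgeR adjusted p = 0.0106, OVA-pulsed). A count over a whole gene does not show a small edit, so the mRNA level does not check the label. The paper reports little or no Siglec-E expression on the pooled EKO clones, which concerns the line and not these libraries. Every direction below is that of the labelled lines. All 8 dendritic cell markers were above the filter and summed to 24251 to 25334 CPM in OVA-pulsed CtrV and 25617 to 25994 CPM in OVA-pulsed EKO libraries. Most of that sum was Cd74, at 13959 to 18270 CPM over the 12 libraries. Zbtb46 lay at 56.4 to 78.7 CPM, and Flt3 reached only 0.997 to 7.85 CPM. The 6 macrophage markers were all tested and summed to 1020 to 1184 CPM in OVA-pulsed CtrV and 1500 to 1582 CPM in OVA-pulsed EKO libraries. Among them, Adgre1 lay at 594 to 703 and C1qa at 281 to 691 CPM, above Zbtb46. Cd68 at 27.1 to 47.8 and Mertk at 1.48 to 4.07 CPM lay below it. The sums therefore do not tell dendritic cells from macrophages. Of 6 markers of plasmacytoid dendritic cells, known as strong interferon producers, 2 were tested, and their sum of 84.8 to 145 CPM in OVA-pulsed CtrV and 225 to 280 CPM in OVA-pulsed EKO libraries came mainly from Bst2, itself an interferon-stimulated gene, while Siglech stayed at or below 0.332 CPM. Summed markers of T, B and NK cells, neutrophils, fibroblasts and erythroid cells were at most 2.73 CPM in any OVA-pulsed library, with Ncr1, Eomes, Cd3e, S100a8 and Ly6g at 0 counts throughout. The part of the macrophage markers in the results below was not tested.

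Ifnb1, which encodes interferon beta, is a gene of 1 exon at 4:88522025-88522774 on the minus strand (GRCm38, ENSMUSG00000048806). It was close to the detection limit in CtrV cells and clearly counted in EKO cells. The reads numbered 4, 6 and 9 in the unpulsed and 7, 4 and 4 in the OVA-pulsed CtrV libraries (replicates 1 to 3). In the EKO libraries they numbered 23, 205 and 113 without OVA and 87, 112 and 94 with OVA. In CPM, OVA-pulsed cells held 0.189, 0.121 and 0.133 in CtrV and 2.28, 3.60 and 2.89 in EKO libraries, with means of 0.148 ± 0.0365 and 2.92 ± 0.664 (SD, n = 3). Unpulsed cells held 0.141, 0.215 and 0.309 CPM in CtrV and 0.843, 6.76 and 3.46 CPM in EKO libraries, with means of 0.222 ± 0.0843 and 3.69 ± 2.97 (SD, n = 3). Every EKO library was above every CtrV library in both states, and the unpulsed EKO libraries were the most unequal, with replicate 1 lowest. The log2 fold change of EKO against CtrV was 4.29 (SE 0.55, edgeR adjusted p = 0.000105) in OVA-pulsed cells, a 19.5-fold difference with a 95% interval of 8.38 to 45.5. In unpulsed cells it was 3.94 (SE 0.52, edgeR adjusted p = 0.000142), or 15.3-fold with an interval of 6.87 to 34.2. Without OVA-pulsed CtrV replicate 1 the OVA-pulsed value was 4.90, and without unpulsed EKO replicate 2, the library with the most Ifnb1 reads, the unpulsed value was 3.32. Ifnb1 passed the filter on low counts only through its EKO libraries, so under that filter a tested Ifnb1 had to differ. With no filter beyond 1 count the log2 fold change was 4.27 (edgeR adjusted p = 1.49e-08) in OVA-pulsed and 3.94 (edgeR adjusted p = 2.60e-08) in unpulsed cells. The smaller p-values of that fit are not particular to Ifnb1. For Irf7 in OVA-pulsed cells the edgeR adjusted p went from 0.000348 to 8.02e-08, with log2 fold changes of 2.28 and 2.27. As the cells were measured in bulk, more cells with the transcript and more transcript per cell cannot be told apart.

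Interferon beta was the single ligand of its kind that could be tested. Among 20 other interferon genes of types I, II and III, 10 had no count in any library and 10 had at least 1, with a maximum of 4 counts in a single library (Ifna4). A count of 0 in a library allows a level of up to 0.0785 to 0.110 CPM at these depths, for counting error only. The 13 Ifna genes are near-identical copies, and the authors' alignment kept 1 location for a read that matched several, so their counts are uncertain gene by gene.

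**Figure D2:**
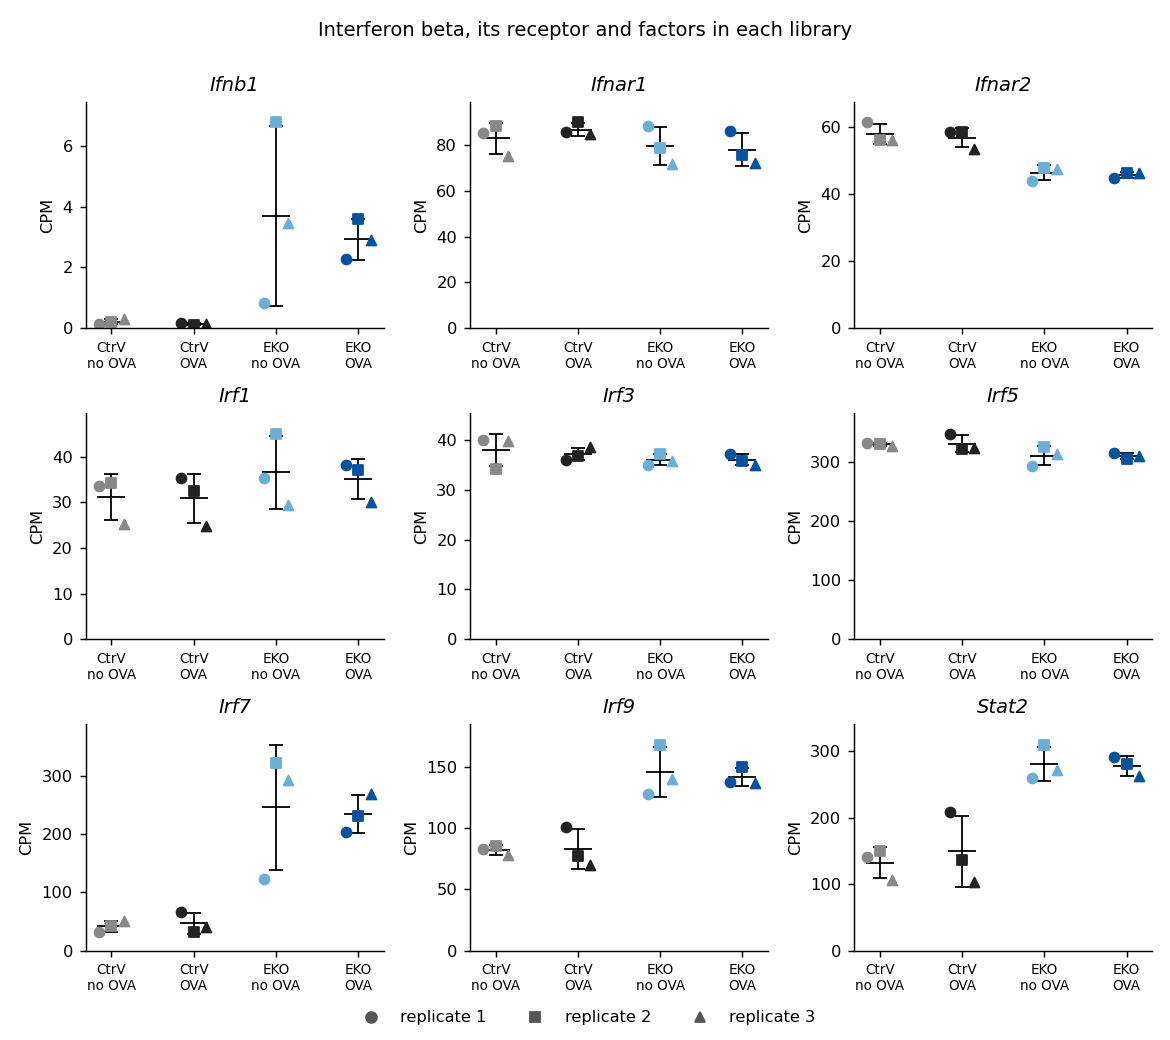
CPM of the 9 genes in each library (circle, square and triangle for replicates 1, 2 and 3) by line and pulsing, with the mean (long bar) and SD of 3 libraries; each panel starts at 0 and has its own scale. The EKO libraries lie above all CtrV libraries for Ifnb1, Irf7, Irf9 and Stat2 and below them for Ifnar2.

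The genes of both receptor chains lie on the plus strand of chromosome 16, Ifnar2 at 91372783-91405589 and Ifnar1 at 91485238-91507441. Ifnar2 (ENSMUSG00000022971), the chain that binds interferon with the higher affinity, was lower in EKO cells. OVA-pulsed libraries held 58.5, 58.5 and 53.6 CPM in CtrV and 44.9, 46.3 and 46.3 CPM in EKO, and unpulsed libraries 61.5, 56.2 and 56.4 CPM in CtrV and 44.0, 47.8 and 47.7 CPM in EKO. No EKO library reached the lowest CtrV library in either state. The change was -19.4% with a 95% interval of -26.4 to -11.8% in OVA-pulsed cells (log2 fold change -0.31, SE 0.06, edgeR adjusted p = 0.00141) and -19.8% in unpulsed cells (-0.32, SE 0.06, edgeR adjusted p = 0.00134). Another gene on the same strand shares 9.46% of the exon bases of Ifnar2, so a part of its reads is uncertain.

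Ifnar1 (ENSMUSG00000022967), the chain that holds TYK2, had overlapping groups in both states. OVA-pulsed libraries held 85.6, 89.9 and 84.8 CPM in CtrV and 86.1, 75.9 and 72.2 CPM in EKO, where replicate 1 was as high as the controls. In unpulsed libraries the levels were 85.3, 88.2 and 75.3 CPM in CtrV and 88.3, 78.8 and 71.9 CPM in EKO. Neither difference passed the test, with a change of -10.3% (95% interval -18.6 to -1.12%, edgeR adjusted p = 0.0643) in OVA-pulsed and -4.05% (-13.0 to 5.77%, edgeR adjusted p = 0.470) in unpulsed cells. Without the replicate 1 libraries, or without the OVA-pulsed CtrV replicate 1 alone, the OVA-pulsed difference in Ifnar1 passed, with log2 fold changes of -0.24 (edgeR adjusted p = 0.0138) and -0.22 (edgeR adjusted p = 0.0171). With all libraries it also passed under upper-quartile scaling, at -0.19 (edgeR adjusted p = 0.0272).

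Of the factors that act before interferon beta, neither Irf3 nor Irf5 passed the test. Irf3 (7:44997648-45002848, plus strand, ENSMUSG00000003184) encodes the factor that TBK1 activates and is mainly controlled by phosphorylation, which these counts do not measure. OVA-pulsed libraries held 36.0, 36.8 and 38.5 CPM in CtrV and 37.2, 35.8 and 35.0 CPM in EKO, and unpulsed libraries 39.98, 34.2 and 39.7 CPM in CtrV and 34.9, 37.1 and 35.8 CPM in EKO. The groups overlapped in both states. The interval of the change was -12.1 to 7.17% in OVA-pulsed (edgeR adjusted p = 0.610) and -14.2 to 4.77% in unpulsed cells (edgeR adjusted p = 0.361).

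Irf5 (6:29526625-29541871, plus strand, ENSMUSG00000029771) encodes a factor of the MyD88 branch that drives inflammatory cytokine genes. OVA-pulsed libraries held 348, 321 and 323 CPM in CtrV and 315, 305 and 309 CPM in EKO, and unpulsed libraries 332, 330.03 and 327 CPM in CtrV and 292, 325 and 313 CPM in EKO. All EKO libraries were below all CtrV libraries in both states, yet the difference did not pass the test: the change was -6.28% (95% interval -13.8 to 1.95%, edgeR adjusted p = 0.184) with OVA and -5.83% (-13.4 to 2.45%, edgeR adjusted p = 0.223) without. Of all tested genes, 52.9% had libraries that did not overlap between the lines in OVA-pulsed and 47.1% in unpulsed cells. A gene on the opposite strand covers 14.1% of the exon bases of Irf5, and the sources used here do not say if reads were counted by strand.

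Irf1 (11:53770014-53778374, plus strand, ENSMUSG00000018899) encodes an interferon-induced factor that binds IRF elements itself. OVA-pulsed libraries held 35.2, 32.5 and 24.9 CPM in CtrV and 38.2, 37.0 and 30.1 CPM in EKO, and unpulsed libraries 33.6, 34.3 and 25.3 CPM in CtrV and 35.2, 45.0 and 29.3 CPM in EKO. Replicate 3 was the lowest in every group, so the groups overlapped, while each EKO library was above the CtrV library of its own number. The log2 fold change was 0.19 (SE 0.08, edgeR adjusted p = 0.0724) in OVA-pulsed cells and 0.23 (SE 0.08, edgeR adjusted p = 0.0363) in unpulsed cells. The OVA-pulsed difference passed with only the compared libraries fitted (edgeR adjusted p = 0.0241), without OVA-pulsed CtrV replicate 1 (0.0390) and without the replicate 1 libraries (0.0472). The unpulsed call rested on the replicate number as a term: without it the edgeR adjusted p was 0.330, and leaving out any 1 unpulsed library other than EKO replicate 1 also ended it, with edgeR adjusted p between 0.0670 and 0.194, the highest without EKO replicate 2.

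The factors that act after the receptor were higher in EKO cells, and Irf7 by the most. Irf7 (7:141262706-141266481, minus strand, ENSMUSG00000025498), the factor that amplifies type I interferon, held 66.5, 32.5 and 40.8 CPM in OVA-pulsed CtrV and 204, 231 and 269.8 CPM in OVA-pulsed EKO libraries. Unpulsed libraries held 32.1, 42.8 and 51.2 CPM in CtrV and 122, 322 and 294 CPM in EKO. The groups did not overlap in either state, and unpulsed EKO replicate 1, the library with the fewest Ifnb1 reads among the EKO libraries, was also the lowest EKO library for Irf7. Means rose from 46.6 ± 17.7 to 235 ± 33.0 CPM with OVA and from 42.0 ± 9.58 to 246 ± 108 CPM without (SD, n = 3). The log2 fold change was 2.28 (SE 0.35, edgeR adjusted p = 0.000348) in OVA-pulsed cells, a 4.87-fold difference with an interval of 2.85 to 8.31, and 2.53 (SE 0.35, edgeR adjusted p = 0.000196) in unpulsed cells, or 5.77-fold with an interval of 3.36 to 9.91. Without OVA-pulsed CtrV replicate 1, the highest CtrV library, the OVA-pulsed value of Irf7 was 2.93. Annotated transcripts that retain introns cover all of the Irf7 gene, so reads from unspliced RNA may be counted with the mature transcript.

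Irf9 (14:55603571-55610030, plus strand, ENSMUSG00000002325), the DNA-binding subunit of ISGF3, held 100.98, 77.4 and 70.0 CPM in OVA-pulsed CtrV and 137, 149.7 and 137 CPM in OVA-pulsed EKO libraries. Unpulsed libraries held 82.7, 85.3 and 77.9 CPM in CtrV and 128, 168 and 140.4 CPM in EKO. All EKO libraries were above all CtrV libraries. The log2 fold change was 0.77 (SE 0.12, edgeR adjusted p = 0.000352) with OVA and 0.83 (SE 0.12, edgeR adjusted p = 0.000240) without, or 1.71-fold and 1.77-fold.

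Stat2 (10:128270559-128292849, plus strand, ENSMUSG00000040033), the ISGF3 subunit specific to type I and III interferons, held 208, 136 and 103 CPM in OVA-pulsed CtrV and 291, 279.7 and 262 CPM in OVA-pulsed EKO libraries. Unpulsed libraries held 140.0, 149.9 and 106 CPM in CtrV and 259.8, 309 and 271 CPM in EKO. The groups did not overlap, although OVA-pulsed CtrV replicate 1 stood above the other CtrV libraries, as it did for Irf7 and Irf9. The log2 fold change was 0.93 (SE 0.17, edgeR adjusted p = 0.00103) with OVA and 1.11 (SE 0.17, edgeR adjusted p = 0.000350) without, or 1.91-fold and 2.16-fold.

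In OVA-pulsed cells 5 of the 9 genes thus passed the test, 4 higher (Ifnb1, Irf7, Irf9 and Stat2) and 1 lower (Ifnar2), while 47% of all tested genes passed in the same comparison, 25.1% higher and 21.9% lower. In unpulsed cells 6 passed, with Irf1 added to those higher under these settings, against 46.4% of all tested genes, 24.5% higher and 21.9% lower. Ifnb1 is in both counts although it reached the test only through its EKO libraries. With so many genes different between the lines, the number of members called does not set the 9 genes apart from the rest. Without EKO replicate 1 in either state, a setting chosen after seeing the data, 6 members passed in each comparison, Ifnar1 lower in OVA-pulsed cells included. Ifnb1 was then at 4.37 and 4.42 and Irf7 at 2.53 and 2.94. Over the settings that left out libraries, this one included, 4403 to 5973 genes were called in OVA-pulsed and 4488 to 6199 in unpulsed cells. The median log2 fold change of the 9 genes was 0.19 in OVA-pulsed and 0.23 in unpulsed cells, against 0.00064 and 0.00013 over all tested genes.

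Pulsing with OVA before LPS was compared within each line, and no member passed. The share of all tested genes that passed was 0% in CtrV, 0% in EKO and 0% for the dependence of the line difference on pulsing. At an unadjusted p under 0.05, edgeR's test held 231, 394 and 269 genes in these comparisons, or 1.64%, 2.80% and 1.91% of the tested genes. Each share is below the fraction of 0.05 that this limit would let through with no difference. After adjustment, no other tool tried called any gene. The estimates for Ifnb1 were imprecise. Its log2 fold change of OVA-pulsed against unpulsed was -0.53 (95% interval -2.62 to 1.56) in CtrV and -0.18 (-0.90 to 0.54) in EKO cells. Changes of several fold in CtrV are therefore within the interval. For Irf7 they were 0.21 (-0.56 to 0.97) and -0.04 (-0.76 to 0.69). For Irf5, the gene measured most precisely, they were 0.00 (-0.12 to 0.13) and -0.00 (-0.12 to 0.12). The difference between the line differences was 0.35 for Ifnb1 (interval -1.83 to 2.53) and -0.25 for Irf7 (-1.29 to 0.80).

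**Figure D3:**
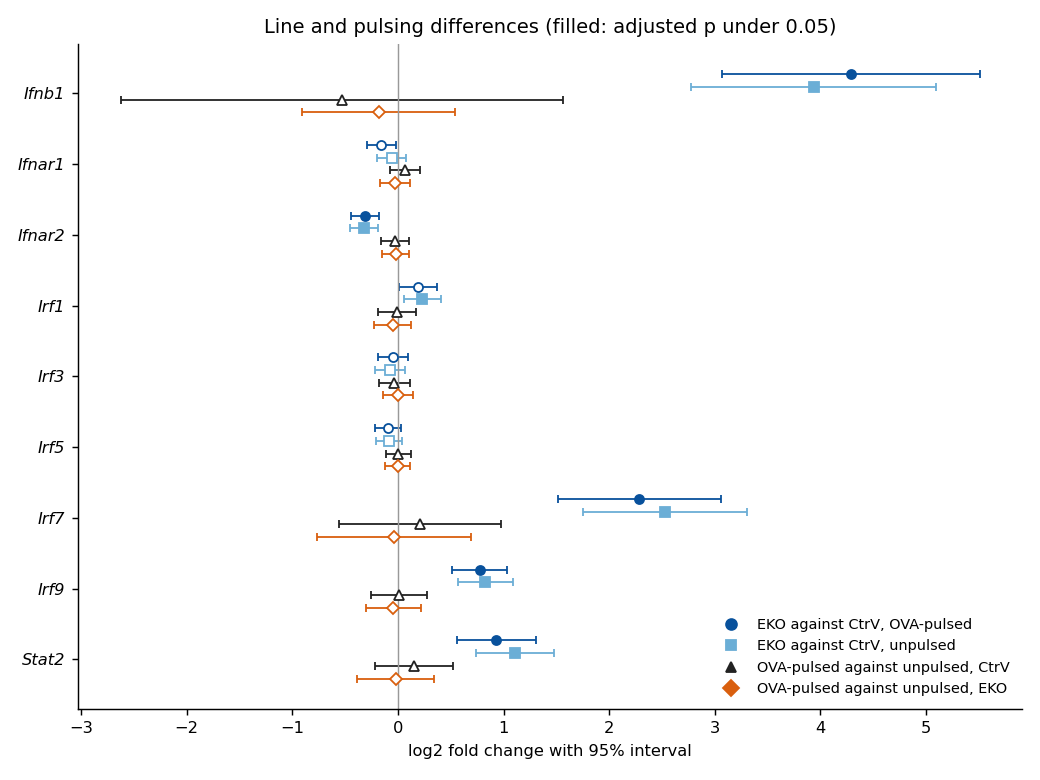
Log2 fold changes of the 9 genes with 95% intervals, for EKO against CtrV with and without OVA and for OVA-pulsed against unpulsed in each line; filled symbols passed at an adjusted p under 0.05. Ifnb1 is at 4.29 and 3.94 and Irf7 at 2.28 and 2.53 between the lines, and all intervals of the pulsing comparisons include 0.

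Scaled to the length of the annotated exons (CPM per kb), levels can be set side by side between genes. In OVA-pulsed CtrV libraries Irf5 was highest with a mean of 114 CPM per kb, and its range did not meet that of the next gene. Stat2 (25.1), Ifnar2 (17.1), Irf9 (15.4), Ifnar1 (14.6), Irf7 (12.3) and Irf3 (10.8 CPM per kb) followed, each with a range that overlapped that of its neighbours in this order. Irf1 with 7.76 and Ifnb1 with 0.197 CPM per kb were lowest and stood clear of their neighbours. In OVA-pulsed EKO libraries the level of Irf5 was 107 CPM per kb and Irf7 came next with 62.3, followed by Stat2 with 46.8 and Irf9 with 26.2 CPM per kb, all without overlap. Ifnar2 (13.8) and Ifnar1 (13.1) overlapped each other, Irf3 was at 10.5, Irf1 at 8.83 and Ifnb1 still lowest at 3.90 CPM per kb. On this scale Irf7 was second in EKO cells, and Ifnb1 was last in both lines. The order depends on the length used: with the longest annotated transcript, Irf7 in OVA-pulsed CtrV cells was at 14.4 CPM per kb, below Irf3 with 18.3 and next to Irf1 with 14.5, and Ifnar2 came below Ifnar1, Irf3 and Irf1 in OVA-pulsed EKO cells, at 15.0 against 19.97, 17.7 and 16.4 CPM per kb.

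The kinases and STAT factors that work with the 9 genes were counted as a list of other IRF, STAT and JAK genes, of which 12 of 13 were tested. In OVA-pulsed cells 7 were higher and none lower, with a median log2 fold change of 0.36, and in unpulsed cells 6 were higher and none lower, with a median of 0.31. The share called in either direction is near the 47% and 46.4% of all tested genes, whose medians were 0.00064 and 0.00013. By direction, 25.1% of all tested genes were higher and 21.9% lower with OVA, and 24.5% and 21.9% without. Irf8, a factor that dendritic cells need for their development, was higher by 1.35 on the log2 scale (SE 0.15, edgeR adjusted p = 3.98e-05). Stat4 and Stat5a, which serve other cytokines, were higher by 1.98 and 1.23 in OVA-pulsed cells, and their unpulsed values of 0.61 and 0.64 did not pass, although no gene passed the test of whether the line difference depended on pulsing. Of the receptor's kinases, Tyk2 was higher by 0.24 (edgeR adjusted p = 0.0141), while Jak1 was at 0.14 (edgeR adjusted p = 0.116). Irf4 and Irf2 did not pass, at 0.23 (edgeR adjusted p = 0.197) and -0.10 (edgeR adjusted p = 0.413).

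The path from TLR4 and the nucleic acid sensors to IRF3 had 16 genes, all tested, of which 11 were higher and 3 lower in EKO cells in each state. The median log2 fold changes were 0.89 with OVA and 0.87 without. Of all tested genes, 47% and 46.4% were called, with 25.1% and 24.5% higher and 21.9% lower in each state. Ikbke, which encodes IKK-epsilon, was higher by 3.51 in OVA-pulsed cells (SE 0.24, edgeR adjusted p = 9.68e-07), with means of 3.16 ± 1.39 and 36.5 ± 15.2 CPM (SD, n = 3). Ticam2, the adaptor that brings TRIF to TLR4, was higher by 2.26 (SE 0.14, edgeR adjusted p = 5.98e-07), and Ticam1, which encodes TRIF, by 0.83 (SE 0.10, edgeR adjusted p = 5.99e-05). Tlr4 itself was higher by 1.43 and Tbk1 by 0.43, from 42.8 ± 1.63 to 57.5 ± 2.25 CPM. Tbkbp1, which encodes an adaptor that binds TBK1, was lower by more than any other gene of the list, from 155 ± 5.14 to 36.7 ± 2.77 CPM (log2 fold change -2.08, SE 0.07, edgeR adjusted p = 1.19e-08). The mRNA of Irf3 itself was not called between the lines, while 11 genes of this list were higher and 3 lower.

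The proteins that sit with IRF3 on the Ifnb1 enhancer were represented by 7 genes. In OVA-pulsed cells 2 were higher and 2 lower with a median of 0.00386, and in unpulsed cells 1 was higher and 2 lower, shares near the 47% and 46.4% of all tested genes. Nfkb1, a subunit of NF-kB, was higher by 0.83 (SE 0.07, edgeR adjusted p = 5.63e-06). Hmga1, an architectural DNA-binding protein, was at -0.34 (SE 0.07, edgeR adjusted p = 0.00205) and Jun, a subunit of AP-1, at -0.18 (SE 0.06, edgeR adjusted p = 0.0241), both lower.

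Of 13 genes that restrain type I interferon signalling, all tested, 6 were higher and 2 lower in OVA-pulsed cells and 7 higher and 3 lower in unpulsed cells, with medians of 0.18 and 0.19, where 25.1% of all tested genes were higher and 21.9% lower with OVA and 24.5% and 21.9% without. Usp18, which displaces JAK1 from IFNAR2, was higher by 1.83 (SE 0.19, edgeR adjusted p = 2.16e-05), from 214 ± 36.1 to 771 ± 71.2 CPM. Trex1, a nuclease that removes cytosolic DNA, was higher by 1.68, Socs3 by 1.60 and Socs1 by 0.45 (edgeR adjusted p = 0.000694, 3.55e-05 and 0.00411). Most of the genes higher in this list are also known to be induced by interferons or other cytokines.

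Receptors of the other interferons differed in both directions. The chains of the interferon gamma receptor moved apart, with Ifngr1 lower by a log2 fold change of -1.11 (SE 0.05, edgeR adjusted p = 1.04e-07) and Ifngr2 higher by 0.96 (SE 0.06, edgeR adjusted p = 3.26e-07) in OVA-pulsed cells. Il10rb, a chain shared by the receptors for interferon lambda and interleukin-10, was higher by 0.35. Of the 24 genes of other interferons and receptors, these 3 were tested, and the same directions were called in unpulsed cells.

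Interferon-stimulated genes, the targets of ISGF3, were higher in EKO cells almost throughout. Of 30 listed genes 29 were tested, 28 were higher and none lower in OVA-pulsed cells, and 29 were higher in unpulsed cells, with median log2 fold changes of 1.85 and 2.14, where 25.1% and 24.5% of all tested genes were higher. The remaining gene in OVA-pulsed cells, Cmpk2, was at 1.12 (edgeR adjusted p = 0.0565). Oasl1, an inhibitor of Irf7 translation, was higher by 4.02 (SE 0.31, edgeR adjusted p = 2.74e-06), from 3.87 ± 1.46 to 64.2 ± 5.93 CPM. Zbp1, a nucleic acid sensor, was higher by 2.89 and Ifit1, which binds foreign RNA, by 2.81 (edgeR adjusted p = 0.000538 and 8.68e-05). Interferon gamma and other signals are known to induce several of these genes too, and which ligand acted in the cultures was not measured.

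**Figure D4:**
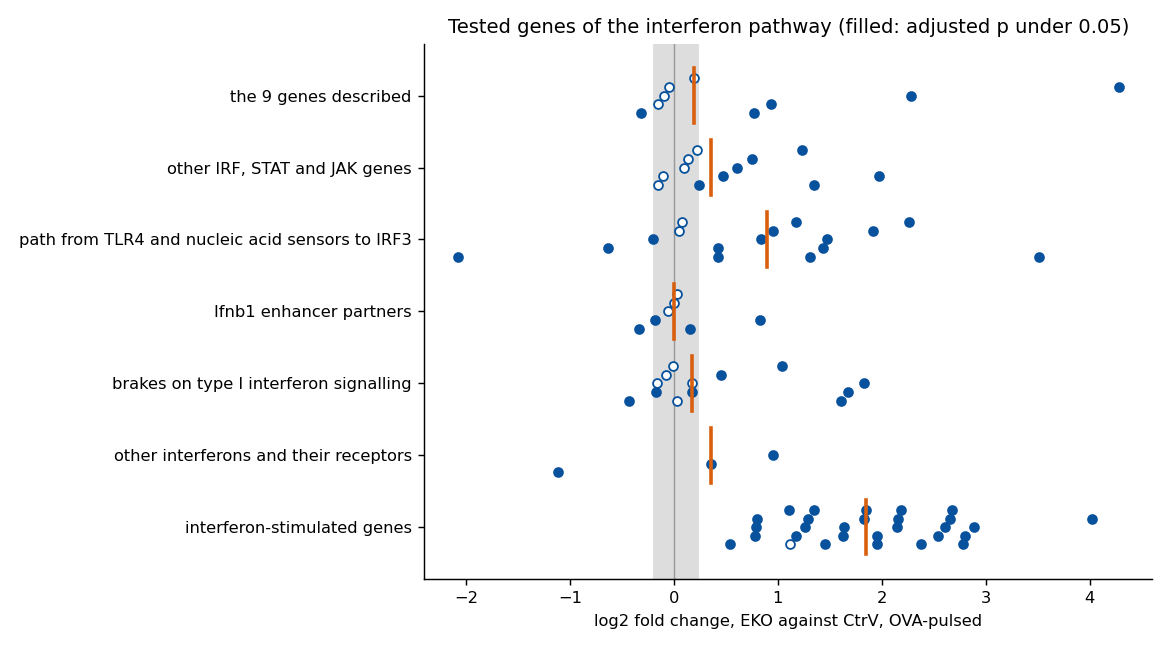
Log2 fold changes of EKO against CtrV in OVA-pulsed cells for the 9 genes and the tested genes of the 6 pathway lists; each circle is a gene, filled where it passed at an adjusted p under 0.05, orange bars are list medians, the grey band spans the middle 50% of all tested genes and the line is their median. The interferon-stimulated genes all lie above 0 around their median of 1.85, and the enhancer partners are centred at 0.00386.

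The genes whose pattern over the 12 libraries was most like that of Ifnb1 and of Irf7 were found by the root mean square difference between gene-centred log2 CPM profiles. For Ifnb1 they were Ifit1bl1 (0.357), Ifit3b (0.397), Ccl4 (0.412), Ccl3 (0.421) and Ifit3 (0.437), against a median of 1.83 over all tested genes. Ccl3 and Ccl4 encode chemokines, and the Ifit genes are interferon-stimulated genes of which Ifit3 and Ifit3b are near-identical copies that may share reads. For Irf7 they were Isg15 (0.144), Ifit2 (0.169), Ube2l6 (0.177), the gene ENSMUSG00000118618 (0.181) and Oasl2 (0.189), against a median of 1.29. Isg15 encodes a ubiquitin-like protein, Ube2l6 the enzyme that conjugates it, and Oasl2 a protein of the oligoadenylate synthetase family. These distances describe the 12 libraries, which fall into the lines that differ, and have no test.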

How the data were processed

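Total RNA of 12 Sp37A3 cultures was sequenced by the authors, who deposited a table of unnormalized counts, with a row for each gene. By their methods and the submitters' processing notes, reads were aligned to mm10 with STAR, handled with SAMtools and counted per gene over all exons with featureCounts, using Ensembl models, with 1 location kept for multiply matching reads. The sources do not say if reads were counted by strand. Groups and replicate numbers came from the labels. Genes were kept where 2 or more libraries exceeded 0 on the log2 CPM scale, and were tested with edgeR 4.0.16 (R 4.3.3, TMM, quasi-likelihood F test, group and replicate number as terms, all 12 libraries, Benjamini-Hochberg over 14079 genes, adjusted p under 0.05). CPM used TMM-scaled library sizes. Intervals cover the fit's error, and floors of 3 counts cover counting error only.

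The members and lists were chosen with earlier results of these data known. All members were named. From each list the 3 called genes with the largest change in OVA-pulsed cells were named, with Jak1, Tyk2, Irf8, Irf4, Irf2, Tlr4, Ticam1, Tbk1, Usp18 and Socs1 whatever their values, and for Ifnb1 and Irf7 the 5 genes nearest in profile (prior count 3). A gene of the IRF, STAT and JAK list is not reported here. Cmpk2 and Ifna4 were named after their values were seen. Same-numbered OVA-pulsed libraries of the lines deviated together (correlations of 0.450, 0.295 and 0.298), and unpulsed ones less (0.066, -0.009 and 0.271). Within a line, unpulsed and OVA-pulsed libraries of 1 number had correlations of 0.711, 0.357 and 0.424 in EKO and 0.089, 0.185 and 0.385 in CtrV cells. The replicate number came from the labels, and the study's methods use it as a term. Symbols and positions came from GENCODE M21 on GRCm38 and promoters from RefSeq, whose starts can differ from it and from the authors' Ensembl model. Alternatives were other normalizations, filters, tools (DESeq2 1.42.0, limma 3.58.1), a stricter limit, the fit without the replicate term, only the compared libraries, and leaving out libraries.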

Additional observations from a re-analysis of the deposited data

How the results depend on the processing

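The calls for Ifnar2, Irf7, Irf9 and Stat2 held in both line comparisons under every alternative, as did that of Ifnb1 except with at least 10 counts in every library, where it had no value. When libraries were left out, the log2 fold change in OVA-pulsed cells ranged from 3.72 to 4.90 for Ifnb1, 1.97 to 2.93 for Irf7, 0.66 to 0.97 for Irf9, 0.74 to 1.22 for Stat2 and -0.36 to -0.26 for Ifnar2. Irf1 in unpulsed cells lost its call at an adjusted p limit of 0.01, with upper-quartile scaling (adjusted p = 0.0790), DESeq2 (0.0501), only the compared libraries (0.0906) and 7 of the settings that left out libraries. Irf3 in OVA-pulsed cells lay at -0.04 and ranged from -0.087 to 0.0034 when libraries were left out, the positive value without replicate 3. With no replicate block, genes called went from 6619 to 5413 in OVA-pulsed and from 6537 to 5337 in unpulsed cells, and members called from 6 to 5 in unpulsed cells (Irf1), while the 5 members called in OVA-pulsed cells stayed at 5. Between the lines, the correlations of same-numbered unpulsed libraries were near 0 for replicates 1 and 2 (0.066 and -0.009) and 0.271 for replicate 3. Leaving out libraries gave 4403 (without replicate 3) to 5973 genes called in OVA-pulsed cells. The dependence on pulsing then ranged from 0 to 5 genes and pulsing in EKO cells from 0 to 4, the highest without replicate 1, with no member among them. Causes were not tested. With 4 to 9 reads per CtrV library, counting error adds to the width of the Ifnb1 intervals.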
